A study of Homo sapiens with 8 samples.

Results

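The growth factor genes described here in hCMEC/D3 cells were chosen by name and are 10 in number: the ligands PDGFA, PDGFB, PDGFC, PDGFD and FGF2, and the receptors PDGFRA, PDGFRB, FGFR1, EGFR and MET. All 10 were found by their symbol among the 23346 genes of the deposited table. hCMEC/D3 is a clonal line of human brain microvascular endothelial cells, immortalised with telomerase and SV40 large T antigen and grown to model the blood-brain barrier in vitro. Polyadenylated RNA of the untreated line was sequenced in 8 replicate libraries that form 1 group, so the data hold no comparison of conditions. The labels do not say whether the replicates were separate cultures, so p-values measure the spread between these libraries, which may be technical. The culture medium and the growth factors in it are not given in the sources used here.

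These genes encode receptor tyrosine kinases and the secreted factors that switch them on. Endothelial cells release PDGF-B, which recruits pericytes that carry PDGFRB, and a vessel wall that lacks this signal is poor in pericytes and leaky in the brain. FGF2 acts through FGFR1 together with heparan sulphate and maintains endothelial growth and junctions. EGFR answers to EGF, TGFA and HBEGF, and MET is the receptor of HGF, which is made mainly by mesenchymal cells.

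Total counts were 69388544 to 90205244 per library. All 186768 counts were even, so 2 counts were read as 1 read pair. No pair of libraries agreed within sampling noise (chi-square per degree of freedom of at least 4.79 over the 28 pairs), and all 8 were used as replicates. Replicates 2, 7 and 8 stood apart: their CPM (counts scaled to library size) deviated from the gene means by a slope of -0.23, -0.11 and -0.34 (log2) per doubling of transcript length, against 0.09 to 0.15 in the other 5. Several levels and ratios that these libraries moved are also given without them. All 10 listed endothelial markers were detected, with summed levels of 1898 to 3541 CPM, including CDH5 (649 ± 152 CPM, SD, n = 8), ESAM (162 ± 56.9 CPM) and CLDN5 (125 ± 74.2 CPM, the only one of the 10 more variable than genes of like abundance, edgeR adjusted p = 7.36e-04).

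Of the 10 genes 9 reached 1 CPM or more in every library, the level called detected here, and PDGFRA did not. By the same rule 51.3% of all listed genes were detected. Levels of different genes are compared per transcript length, as RPKM (CPM per kilobase of the canonical transcript). PDGFB, FGF2 and MET were the highest at 32.8 ± 7.52, 26.6 ± 8.97 and 18.6 ± 6.77 RPKM (SD, n = 8), against a median of 11.4 RPKM over detected genes. FGFR1 followed at 13.2 ± 0.656 RPKM. PDGFC, PDGFA and EGFR had 7.69 ± 0.665, 5.74 ± 1.16 and 4.77 ± 2.41 RPKM. PDGFD and PDGFRB were low at 2.86 ± 0.391 and 1.68 ± 0.287 RPKM, and PDGFRA was at 0.0158 ± 0.00702 RPKM. Neighbours in this order were separated in all libraries, without overlap of their ranges, only between FGFR1 and PDGFC, between PDGFD and PDGFRB, and between PDGFRB and PDGFRA. The order of FGFR1 and PDGFC depended on the length used. Their canonical transcripts have 5697 and 4570 nt, and the union of all exons has 17201 and 5998 nt. Per union length PDGFC lay above FGFR1 in every library. FGF2 exceeded MET in 8 of 8 libraries although their ranges overlapped. PDGFB exceeded FGF2 in 5 of 8, MET exceeded FGFR1 in 6 of 8, PDGFA exceeded EGFR in 4 of 8 and EGFR exceeded PDGFD in 6 of 8, and the mean log2 ratio of each of these neighbours was smaller than its SD. PDGFC exceeded PDGFA in 7 of 8, with overlapping ranges but a mean log2 ratio larger than its SD.

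**Figure D1:**
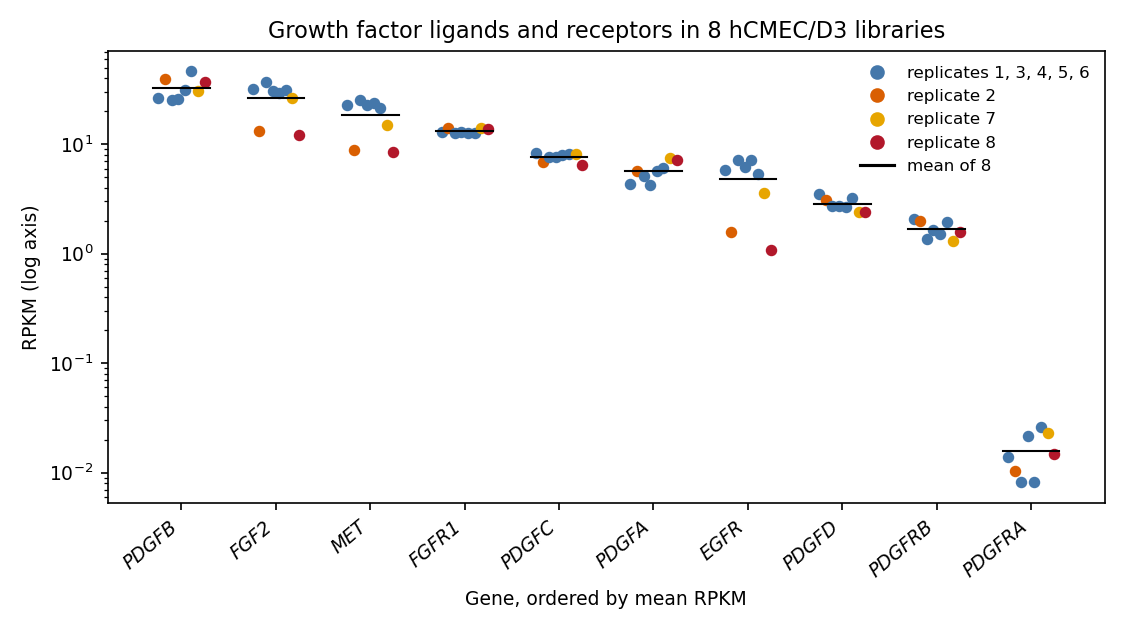
RPKM (log axis) of each gene in each of the 8 libraries, with replicates 2, 7 and 8 coloured and a bar at the mean. EGFR, MET and FGF2 were lowest in replicates 2 and 8, FGFR1 was nearly level at 12.6 to 14.1 RPKM, and PDGFRA lay far below the rest.

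EGFR, MET and FGF2 each had less than 0.5 of their mean over the other 6 libraries in replicates 2 and 8, and their promoters are shown for that reason. On CPM, PDGFC was also lowest in these 2 libraries but by less, which makes 4 of 9 genes, when 29.8% of all detected genes had replicates 2 and 8 below the other 6. The difference of PDGFC (-0.26, log2 CPM) was near the median of genes of like length (-0.22). On the authors' normalised values PDGFC was not lowest there, at 5.81 and 5.77 against 5.58 to 5.89 in the other 6 (log2). Promoter windows were available from RefSeq for 7 of the 10 genes (GRCh38.p14, whereas the deposited table is in hg19), but not for PDGFB, PDGFC and FGFR1. The 250 bases before the start are printed on the gene's strand, with the GC box motif GGGCGG, the core of the site bound by SP family factors, searched on both strands and set in capitals. No match overlapped another.
EGFR (chr7:55018767-55019016, plus strand): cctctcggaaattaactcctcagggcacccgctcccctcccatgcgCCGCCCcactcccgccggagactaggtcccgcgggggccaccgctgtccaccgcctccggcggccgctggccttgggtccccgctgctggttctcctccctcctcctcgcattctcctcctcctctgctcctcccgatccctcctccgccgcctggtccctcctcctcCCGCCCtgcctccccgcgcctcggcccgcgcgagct
MET (chr7:116671946-116672195, plus strand): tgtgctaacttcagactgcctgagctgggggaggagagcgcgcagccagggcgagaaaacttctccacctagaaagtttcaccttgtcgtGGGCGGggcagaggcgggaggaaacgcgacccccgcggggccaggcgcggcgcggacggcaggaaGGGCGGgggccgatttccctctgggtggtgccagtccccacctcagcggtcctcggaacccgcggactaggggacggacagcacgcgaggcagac
FGF2 (chr4:122826581-122826830, plus strand): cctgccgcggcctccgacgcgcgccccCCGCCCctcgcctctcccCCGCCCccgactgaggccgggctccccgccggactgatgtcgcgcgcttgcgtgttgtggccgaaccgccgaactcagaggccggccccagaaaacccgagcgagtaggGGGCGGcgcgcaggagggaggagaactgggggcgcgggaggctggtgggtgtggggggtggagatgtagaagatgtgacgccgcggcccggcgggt
The windows of EGFR, MET and FGF2 held 2, 2 and 3 GC boxes. At least 1 was present in 42.6% of the 35116 windows of the same length. Their GC content was 73.6%, 68.4% and 75.2%, against a median of 58% over all windows. None of the 3 held TATAAA on either strand, which 10.7% of all windows did. PDGFA, PDGFD and PDGFRB, which did not share the low values in replicates 2 and 8, held 4, 1 and 1 GC boxes and had a GC content of 68.8%, 69.2% and 58.4%, and PDGFRA held 0 GC boxes at 46.8%. None of these 4 held TATAAA either. These matches describe the letters of the windows and say nothing of binding.

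PDGF ligands form dimers that bind the PDGF receptors, and PDGF-B is the form that endothelial cells present to pericytes. PDGFB (hg19 chromosome 22, 39619685 to 39640957, minus strand, 7 exons) was the highest of the 4 ligands in every library. Its level was 94.0 CPM at the lowest, 116 at the median and 173 at the highest, from 6660 to 13166 counts. The highest value was in replicate 6, and replicates 2 and 8 followed with 146 and 138 CPM. On the authors' normalised values replicates 2 and 8 did not stand above the rest. They had 7.51 and 7.36, against 7.38 to 7.64 in replicates 1, 3, 4, 5 and 7 (log2). Within libraries PDGFB exceeded PDGFA by a log2 RPKM ratio of 2.49 ± 0.28, PDGFC by 2.05 ± 0.38 and PDGFD by 3.45 ± 0.35 (SD, n = 8). Each ratio was positive in all libraries (exact sign-flip permutation test, two-sided, p = 0.00781, adjusted p = 0.00919 over 20 pairs, which were chosen with earlier results of these data known, n = 8). With 8 libraries 0.00781 is the smallest p this test can give.

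PDGFA, whose homodimer is the classical ligand of PDGFRA, lies on chromosome 7 (536897 to 559481, minus strand, 6 exons). It had 11.7, 15.6 and 20.5 CPM at the lowest, median and highest, with the top values in replicates 7 and 8. PDGFC and PDGFD are secreted as latent factors whose CUB domain is cut off by proteases, tissue plasminogen activator (PLAT) in the case of PDGF-C and urokinase (PLAU) in that of PDGF-D. PDGFC (chromosome 4, 157682763 to 157892546, minus strand, 6 exons) was even, with 29.7, 36.0 and 38.3 CPM. PDGFD (chromosome 11, 103777914 to 104035027, minus strand, 7 exons) had 9.23, 10.6 and 13.4 CPM. PDGFC exceeded PDGFD by 1.40 ± 0.18 (log2 RPKM ratio, 8 of 8 libraries, exact sign-flip permutation p = 0.00781, adjusted p = 0.00919, n = 8). PDGFA lay below PDGFC by -0.44 ± 0.35 in 7 of 8 libraries (exact permutation p = 0.0234, adjusted p = 0.0260, n = 8), and the exception was replicate 8 at 0.13. Both activating proteases were detected, PLAT at 86.3 ± 12.6 and PLAU at 91.9 ± 4.24 CPM (SD, n = 8), as was FURIN, which cleaves the precursors of PDGF-A and PDGF-B (164 ± 27.7 CPM).

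The 2 PDGF receptors differed from each other. PDGFRB (chromosome 5, 149493402 to 149535422, minus strand, 23 exons), the pericyte receptor for PDGF-B, had 7.53, 9.25 and 11.8 CPM at the lowest, median and highest, with 590 to 1014 counts. It was higher in replicates 1, 2 and 6 (11.1 to 11.8 CPM) than in the other 5 (7.53 to 9.45 CPM). PDGFRA (chromosome 4, 55095264 to 55164412, plus strand, 23 exons), the receptor for PDGF-A and PDGF-C and a marker of fibroblasts and oligodendrocyte precursors, had 4 to 12 counts per library, or 0.0518 to 0.168 CPM. A level of 3 read pairs corresponds to 0.0665 to 0.0880 CPM in these libraries, so PDGFRA was at the limit of counting. PDGFRL, a receptor-like gene without a kinase, had 37.2 ± 8.58 CPM (SD, n = 8). PDGFRB exceeded PDGFRA in 8 of 8 libraries (log2 RPKM ratio 3.93 ± 0.24, exact sign-flip permutation p = 0.00781, adjusted p = 0.00919, n = 8), and the pseudocount of 0.1 RPKM understates the ratio to a gene this low. PDGFB exceeded its receptor PDGFRB by 4.19 ± 0.31 in 8 of 8 libraries with the same exact permutation p and adjusted p (n = 8).

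Markers of other cell types that can express these receptors were examined as lists. In the mural cell list 6 of 10 genes were detected and the summed level was 44.2 to 69.8 CPM. CSPG4, RGS5 and ACTA2 had 32.9 ± 8.97, 14.4 ± 3.77 and 4.74 ± 1.80 CPM (SD, n = 8). NOTCH3, DES, HIGD1B and KCNJ8 were under the detection level (means 0.508, 0.180, 0.338 and 0.0272 CPM). Of 8 fibroblast markers 4 were detected (summed 197 to 309 CPM), COL1A2 at 134 ± 22.98, APOD at 38.6 ± 16.96, COL1A1 at 33.5 ± 7.52 and FBLN1 at 32.7 ± 3.68 CPM. COL3A1 and PDPN had means of 0.0868 and 0.0516 CPM, and DCN and LUM had no counts in 7 and 5 of the libraries. In the oligodendrocyte lineage list 2 of 7 were detected (MBP and CSPG5, summed with the rest to 26.99 to 45.1 CPM), and OLIG1 and OLIG2 had means of 0.0192 and 0.0418 CPM. Of 8 epithelial markers 3 were detected, the keratins KRT18 at 358 ± 74.0, KRT8 at 26.1 ± 3.79 and KRT19 at 2.61 ± 0.718 CPM, and the summed level of 318 to 511 CPM was the highest of the 7 lists other than the endothelial one. The defining epithelial genes EPCAM, CDH1 and GRHL2 were under the detection level (means 0.943, 0.309 and 0.303 CPM). Of 6 neuron markers 2 were detected, TUBB3 at 53.7 ± 6.10 and SYT1 at 4.17 ± 1.29 CPM, with a summed level of 53.9 to 68.4 CPM. Of 6 astrocyte and 6 microglia markers 0 were detected (summed at most 1.19 and 1.46 CPM). Whether cells of another type take part in the levels of PDGFRB, EGFR or MET was not tested. In bulk RNA, a few cells with much RNA of a gene and many cells with little of it cannot be told apart.

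FGF2 and FGFR1, a ligand and its receptor, behaved differently between libraries. FGF2 (chromosome 4, 123747863 to 123819390, plus strand, 3 exons) had 81.6, 200 and 245 CPM at the lowest, median and highest. Replicates 2 and 8 had 88.3 and 81.6 CPM, and 178 to 245 CPM was measured in the other 6, without overlap. Its exons overlap those of NUDT6 on the opposite strand, and strand use in the counting is not given in the sources used here. NUDT6 itself had 1.68 to 2.20 CPM. FGFR1 (chromosome 8, 38268656 to 38326352, minus strand, 18 exons) had 71.6, 73.2 and 80.3 CPM, with a coefficient of variation of 4.98%. FGF2 exceeded FGFR1 by a log2 RPKM ratio of 0.91 ± 0.66 (exact sign-flip permutation p = 0.0312, adjusted p = 0.0329, n = 8), in 6 of 8 libraries. Without replicates 2 and 8 FGF2 had 207 ± 22.3 CPM (SD, n = 6), against 177 ± 59.7 over all 8, and the ratio was 1.26 ± 0.20 (adjusted p = 0.0312, exact permutation, n = 6). The RPKM ratio was -0.09 in replicate 2 and -0.17 in replicate 8, and it lost its adjusted p (0.0658, n = 7, exact permutation) when any 1 of replicates 1, 3, 4, 5, 6 and 7 was left out. On CPM the ratio was 1.14 ± 0.66 (adjusted p = 0.00919, exact permutation, n = 8). It was 0.98 ± 0.27 on the authors' normalised values (log2, adjusted p = 0.00827, exact permutation, n = 8). With the union of all exons as length it was 2.45 ± 0.66 (adjusted p = 0.00822, exact permutation, n = 8). On each of these scales FGF2 exceeded FGFR1 in replicates 2 and 8 too.

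FGF2 was the main FGF ligand transcript and FGFR1 the main FGF receptor transcript. Of 22 FGF ligands 3 were detected: FGF2, FGF5 (37.7 ± 14.2 CPM, SD, n = 8) and FGF11 (2.13 ± 0.314 CPM), an intracellular member of the family. FGF1, the other classical endothelial ligand, had 0.710 ± 0.231 CPM, and FGF2 exceeded it in 8 of 8 libraries (log2 RPKM ratio 6.46 ± 0.42, exact sign-flip permutation p = 0.00781, adjusted p = 0.00919, n = 8). FGF3 and FGF23 had no counts in any library. Of the receptors, FGFR3 had 6.78 ± 1.29 CPM, and FGFR1 exceeded it by 3.00 ± 0.22 in 8 of 8 libraries with the same exact permutation p and adjusted p (n = 8). FGFR2 and FGFR4 were not detected (0.635 ± 0.157 and 0.673 ± 0.133 CPM). The decoy receptor FGFRL1 had 21.7 ± 3.83 CPM, and the Klotho coreceptors KL and KLB, used by endocrine FGFs, were not detected (0.0690 and 0.984 CPM). Heparan sulphate carriers were present, with HSPG2 at 811 ± 292 and SDC4 at 199 ± 20.7 CPM.

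EGFR (chromosome 7, 55086725 to 55275031, plus strand, 28 exons) varied most of the 10 genes by coefficient of variation among those detected (50.5%). In replicates 1 to 8 it had 57.9, 15.8, 71.0, 61.7, 71.4, 53.5, 35.8 and 10.6 CPM. Replicates 8 and 2 were thus lowest, replicate 7 lay between, and the other 5 did not overlap with these 3. The highest value was 6.74-fold the lowest, from 896 to 5512 counts. The mean was 47.2 ± 23.8 CPM over all 8 libraries, 58.6 ± 13.2 CPM without replicates 2 and 8 (SD, n = 6) and 63.1 ± 7.94 CPM without replicates 2, 7 and 8 (n = 5). EGFR overlaps the antisense gene EGFR-AS1, which was not analysed here. Its partner ERBB2, the ligandless member of the family, had 66.2 ± 9.15 CPM (SD, n = 8) and was highest in replicates 2 and 8 (79.8 and 78.1 CPM). On the authors' normalised values ERBB2 was nearly even, at 6.06 to 6.41 (log2). Replicates 2, 7 and 8 had 6.41, 6.39 and 6.37 on that scale. EGFR lay below ERBB2 by a log2 RPKM ratio of -1.82 ± 1.19 in 8 of 8 libraries (exact sign-flip permutation p = 0.00781, adjusted p = 0.00919, n = 8). On CPM, with no length, the ratio was -0.73 ± 1.22 with an adjusted p of 0.211 (exact permutation, n = 8), so this order rests on the length of the EGFR transcript (9905 nt). Without replicates 2 and 8 the RPKM ratio was -1.22 ± 0.44 (adjusted p = 0.0312, exact permutation, n = 6), and without replicates 2, 7 and 8 it was -1.04 ± 0.14 (n = 5). ERBB3 was barely detected at 1.58 ± 0.289 CPM and ERBB4 was not detected (0.568 CPM).

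HBEGF was the main EGFR ligand transcript. It had 59.4 ± 17.1 CPM (SD, n = 8) and was also lowest in replicate 8, at 29.7 CPM, but had 52.0 CPM in replicate 2. On the authors' normalised values both replicates 2 and 8 were lowest, at 6.59 and 5.74 against 6.67 to 7.35 in the other 6 (log2). EGFR lay below HBEGF by -2.56 ± 0.77 (log2 RPKM ratio, 8 of 8 libraries, exact sign-flip permutation p = 0.00781, adjusted p = 0.00919, n = 8), and by -0.53 ± 0.80 on CPM (adjusted p = 0.156, exact permutation, n = 8). Without replicates 2 and 8 the RPKM ratio was -2.23 ± 0.53 (adjusted p = 0.0312, exact permutation, n = 6). Without replicates 2, 7 and 8 it was -2.03 ± 0.26 (n = 5). TGFA had 1.37 CPM in both replicates 2 and 8 and 2.99 to 4.64 CPM in the other 6. AREG, EREG, BTC, EPGN and EGF were under the detection level (means 0.175, 0.865, 0.231, 0.166 and 0.0736 CPM), and NRG3 had no counts. NRG1, a ligand of ERBB3 and ERBB4, had 7.79 ± 0.804 CPM. ADAM17, the sheddase that frees HBEGF and TGFA, had 58.2 ± 18.2 CPM.

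MET (chromosome 7, 116312459 to 116438440, plus strand, 21 exons) had 57.9, 150 and 172 CPM at the lowest, median and highest. Replicates 2, 8 and 7 had 61.0, 57.9 and 103 CPM, and the other 5 had 145 to 172 CPM, again without overlap. The mean was 127 ± 46.2 CPM over all 8 libraries, 149 ± 24.1 CPM without replicates 2 and 8 (SD, n = 6) and 158 ± 9.94 CPM without replicates 2, 7 and 8 (n = 5). MET exceeded EGFR in 8 of 8 libraries (EGFR over MET -2.07 ± 0.39, log2 RPKM ratio, exact sign-flip permutation p = 0.00781, adjusted p = 0.00919, n = 8). Its order against FGFR1 was not resolved: FGFR1 over MET was -0.38 ± 0.70 (exact permutation p = 0.133, adjusted p = 0.133, n = 8), negative in 6 libraries and 0.65 and 0.69 in replicates 2 and 8. Without these 2 libraries the ratio was -0.73 ± 0.32 (adjusted p = 0.0312, exact permutation, n = 6). With the union of all exons as length, which makes FGFR1 3 times as long, it was -1.87 ± 0.70 (adjusted p = 0.00822, exact permutation, n = 8). The ligand HGF had no counts in 5 libraries and at most 4 counts in the others, so MET was present with almost no transcript of its ligand. HGFAC, ST14 and HPN, proteases that can activate HGF, were not detected (0.107, 0.0891 and 0.680 CPM). The related ligand MST1 was not detected (0.712 CPM) and its receptor MST1R had 4.12 ± 0.387 CPM. The protease inhibitors SPINT1 and SPINT2 had 14.2 ± 1.65 and 36.0 ± 3.95 CPM, and CD44, a coreceptor of MET in some variants, had 248 ± 76.5 CPM.

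**Figure D2:**
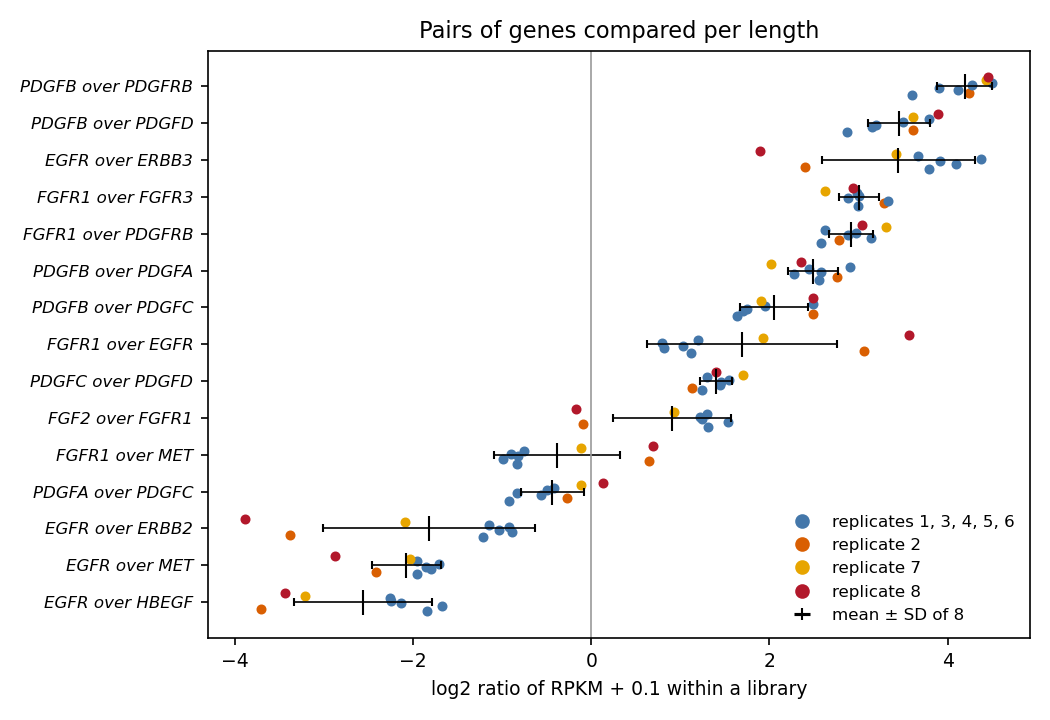
Log2 ratio of RPKM + 0.1 within each library for the 15 pairs in which both genes were detected, with replicates 2, 7 and 8 coloured and a bar for the mean ± SD. Points of replicates 2 and 8 lie apart from the rest wherever EGFR, MET or FGF2 is set against a gene that did not share their low values.

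In all, 19 of the 20 pairs passed the exact sign-flip permutation test (n = 8). The exception was FGFR1 against MET. Some pairs set a detected gene against an undetected one, which made their order near certain beforehand. How many other pairs of genes would pass was not tested, so the tally is no result about these genes. FGFR1, as the most even of the receptors, exceeded PDGFRB by 2.91 ± 0.25 and EGFR by 1.69 ± 1.07 (log2 RPKM ratio, each in 8 of 8 libraries, exact permutation p = 0.00781, adjusted p = 0.00919, n = 8). Its ratio to EGFR was 3.07 in replicate 2 and 3.57 in replicate 8, against 0.80 to 1.93 in the other 6. Without replicates 2 and 8 it was 1.15 ± 0.41 (adjusted p = 0.0312, exact permutation, n = 6), and without replicates 2, 7 and 8 it was 0.99 ± 0.18 (n = 5). The ratio also depended on length. It was 0.78 ± 1.05 with the union of all exons as length (adjusted p = 0.0391, exact permutation, n = 8). On CPM it was 0.93 ± 1.11 (adjusted p = 0.00919, exact permutation, n = 8).

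Variation between replicates was set against that of genes of the same abundance by the goodness-of-fit test of edgeR, which uses a dispersion trend fitted to all 11980 detected genes. Of these, 4.66% had an adjusted p-value under 0.05, and among the 9 detected genes described here 1 did. The values that follow are biological coefficients of variation, the square root of the dispersion that edgeR estimates for a gene and draws toward the trend, and differ from the plain coefficient of variation of CPM given above. EGFR had 54.3% against a trend of 23.5% (edgeR adjusted p = 1.45e-06). MET and FGF2 had 37.1% and 35.0% and did not pass (edgeR adjusted p = 0.0520 and 0.0977). The other 6 lay below the trend. FGFR1 was lowest at 13.1%, and 1.64% of the tested genes had a lower value. With the DESeq2 fitted trend, under which 23.5% of genes were called, EGFR, MET and FGF2 all passed (adjusted p = 1.28e-15, 8.61e-06 and 5.17e-05).

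The call of EGFR rests on replicates 2 and 8 together. It held without either of them (edgeR adjusted p = 8.14e-05 without replicate 2 and 1.68e-04 without replicate 8). Without both, the adjusted p was 0.126 in edgeR, 0 of the 9 genes were called, when 2.75% of all genes were, and 2 had an unadjusted p under 0.05. Without replicates 2, 7 and 8 it was 0.555, and the 1 gene called was PDGFB (edgeR adjusted p = 1.37e-08, against 2.42% of all genes called). Among replicates 1, 3, 4, 5 and 6 PDGFB stood at 173 CPM in replicate 6 and at 94.0 to 117 CPM in the rest. On the authors' normalised values, too, replicate 6 was highest, at 8.28 against 7.36 to 7.64 in the other 7 (log2).

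**Figure D3:**
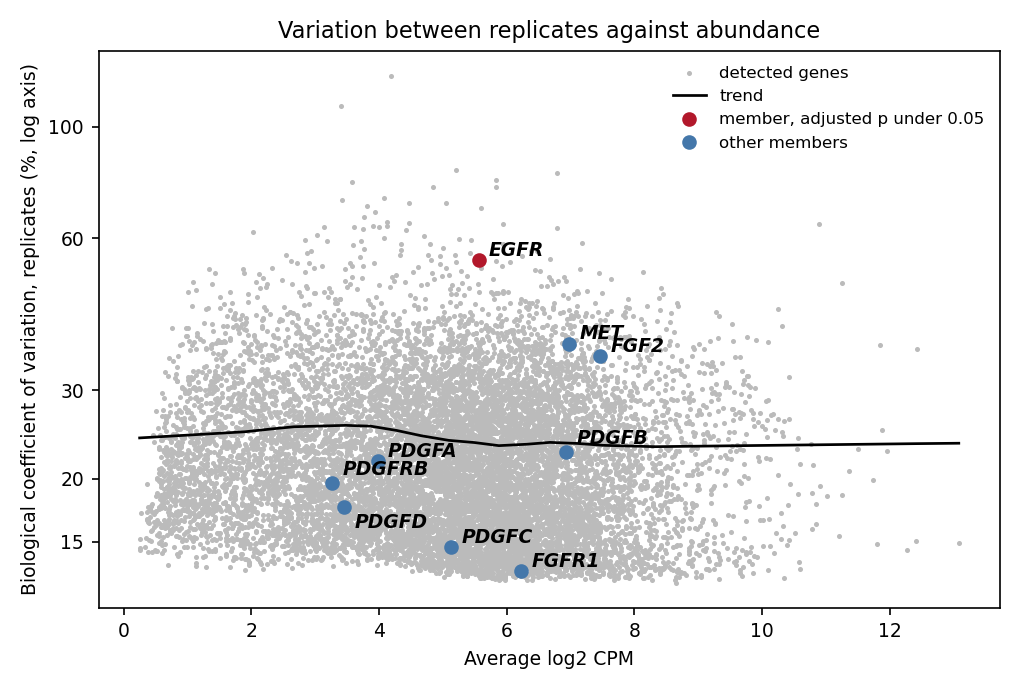
Biological coefficient of variation between replicates (%, log axis) against average log2 CPM for the 11980 detected genes, with the fitted trend as a line. EGFR lies at 54.3%, above the trend and called, MET and FGF2 lie above it uncalled, and FGFR1 lies near the lower edge.

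Since replicates 2, 7 and 8 deviated with transcript length, the deviations were compared on 2 scales: log2(CPM + 0.1), and the authors' values after conditional quantile normalisation (CQN), which corrects for the length and GC content of genes. On CPM, replicates 2, 7 and 8 all lay below the other 5 for EGFR, MET and FGF2 and all above them for FGFR1. This made 3 of 9 lower and 1 of 9 higher, when 27.3% of all detected genes were lower and 30.9% higher in these libraries (58.2% in either direction). On CQN values EGFR and MET were lower and FGFR1 and PDGFC higher, or 4 of 9, at a background of 14.5% lower and 17.3% higher (31.8% in either direction). No test was made, since the 3 libraries are not a group of the study.

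The size of the deviation set EGFR apart more than its direction. The mean of replicates 2 and 8 lay below that of the other 6 by -2.13 for EGFR, -1.31 for MET and -1.28 for FGF2 (log2 CPM). The median gene of the longest of 8 length classes, to which EGFR belongs, differed by -0.70, and that of the class of MET and FGF2 by -0.39. On CQN values the difference of EGFR was still -1.77, while those of MET and FGF2 shrank to -0.57 and -0.43, with class medians of -0.09 and -0.01. Only 1.10% of the genes in its length class had a lower difference than EGFR on CQN values, against 8.25% for MET and 14.4% for FGF2. The split of replicates 2 and 8 from the other 6 was chosen after the data were seen, so these ranks are a description only. FGFR1 (5697 nt) and PDGFRB (5700 nt), in the same length class as MET (6822 nt) and FGF2 (6652 nt), differed by 0.11 and 0.12 on CPM. In that class 81.7% and 82.3% of the genes had a lower difference on CPM than FGFR1 and PDGFRB. For MET and FGF2 these shares were 3.65% and 4.26%. The part of RNA quality or of library preparation in these differences was not tested.

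**Figure D4:**
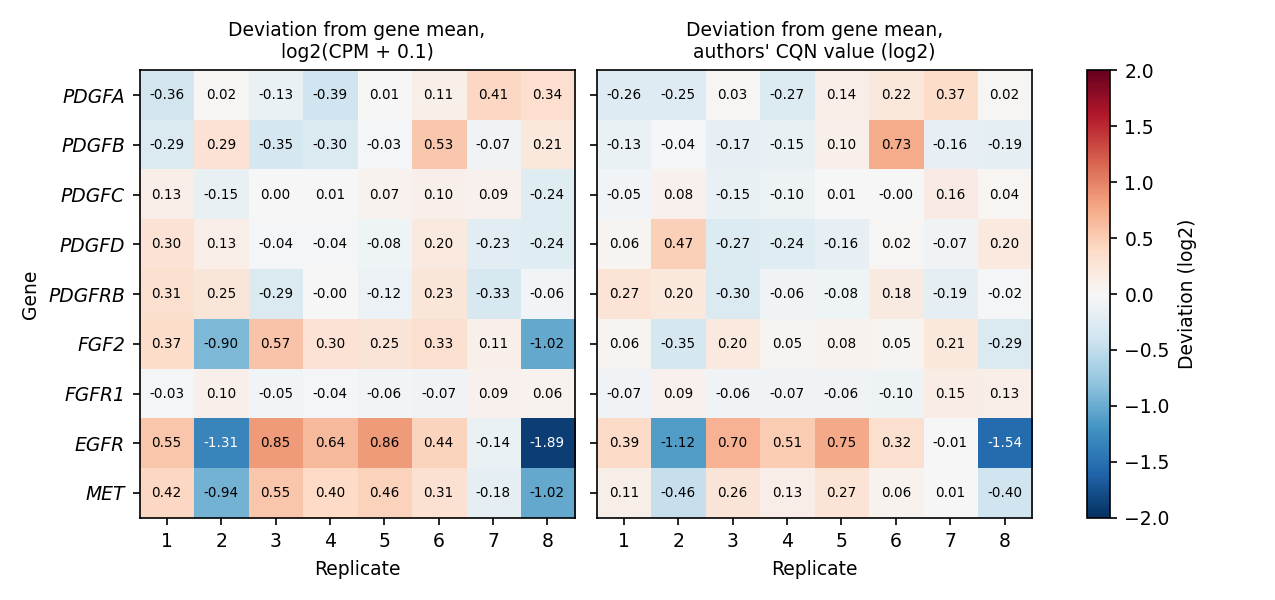
Deviation of each detected gene from its mean over the 8 libraries, by replicate, on log2(CPM + 0.1) at the left and on the authors' CQN values at the right (colour scale and printed values in log2). EGFR stays low in replicates 2 and 8 on both scales, MET and FGF2 are nearer to their means on CQN values, and PDGFB stands out in replicate 6.

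**Figure D5:**
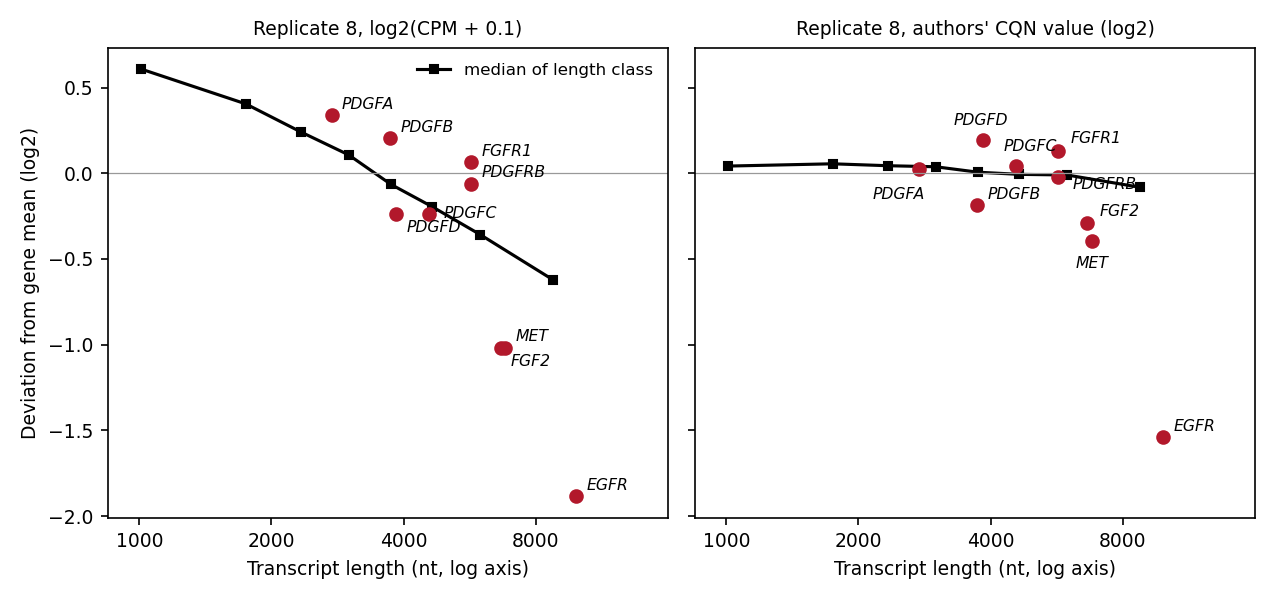
Deviation in replicate 8 against transcript length (nt, log axis), with the medians of 8 length classes of detected genes as black squares, on log2(CPM + 0.1) at the left and on CQN values at the right. The class medians are nearly flat on the right, where EGFR lies at -1.54 (log2).

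Genes with the most similar pattern were sought on the CQN values by Pearson's r over the 8 libraries, among 11979 other detected genes, as a description without a p-value. The points share the libraries and their depth, and 1168 genes had an r above 0.9 with EGFR, so the leading names carry little. For EGFR they were PTPN11, a phosphatase that relays signals from these receptors (r = 0.997), and MDN1 (r = 0.997). For MET the nearest was S100A6 (r = 0.996), and for FGF2 CYP51A1 and VEGFC (r = 0.989 and 0.985). EGFR and MET had an r of 0.978 with each other. FGFR1 was nearest to DIDO1 and GAK (r = 0.998 and 0.989). PDGFB had 2 genes above 0.9, GATA2 (r = 0.919), a transcription factor of endothelial cells, and TMEM168 (r = 0.908). The nearest genes were RAB40B and LFNG for PDGFA (0.949 and 0.915), PTS and PURB for PDGFC (0.961 and 0.939), CD200 and TCF7L1 for PDGFD (0.985 and 0.977), and LOC100128054 and POLD4 for PDGFRB (0.957 and 0.952).

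The other genes of these pathways were taken from 10 lists with 120 genes, the members included, of which 78 were detected. Among these, 7 (8.97%) varied more than the trend at an edgeR adjusted p under 0.05, against 4.66% of all genes. Beside EGFR they were FGF5, TGFA, ADAM10, HRAS, BRAF and CBL. Most shared the low values in replicates 2 and 8, where 29.8% of all detected genes lay below the other 6. This share was not computed among all genes called, so whether the pattern is particular to these pathways was not tested. FGF5 had 18.1 and 15.4 CPM there and 35.2 to 56.2 CPM elsewhere (edgeR adjusted p = 0.0355). ADAM10, a sheddase of EGF family ligands, had 74.6 and 50.3 CPM there and 108 to 191 CPM elsewhere (edgeR adjusted p = 0.00882). CBL, the ubiquitin ligase that sends activated EGFR and MET to lysosomes, had 63.8 and 50.03 CPM against 85.0 to 162 CPM (edgeR adjusted p = 0.0284). BRAF had 2.95 and 2.67 CPM against 5.72 to 11.2 CPM (edgeR adjusted p = 0.00358). HRAS, a short transcript, went the other way, with 67.1 and 94.0 CPM against 31.6 to 59.3 CPM (edgeR adjusted p = 0.0467), and on CQN values it was even, at 6.88 to 7.10 (log2) in all 8 libraries. The CQN values of the others stayed lowest in replicates 2 and 8, by a small margin for CBL (6.31 and 6.16 against 6.52 to 6.71). FGF5 had 4.78 and 4.70 against 5.00 to 5.81, and TGFA 1.25 and 1.44 against 1.82 to 2.41. ADAM10 had 6.89 and 6.38 against 7.19 to 7.83, and BRAF 2.51 and 2.48 against 3.39 to 4.12.

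All 25 listed adaptors and effectors that act downstream of the receptors were detected, led per length by SHC1 (391 ± 21.1 CPM, SD, n = 8), GRB2 (185 ± 13.2 CPM) and MAP2K2 (84.2 ± 30.7 CPM). Of 15 inhibitors and turnover genes 14 were detected, led by ERRFI1, a feedback inhibitor of EGFR (244 ± 58.9 CPM), HGS (163 ± 48.8 CPM) and PTPN1 (223 ± 17.4 CPM), and CBLC was not (0.00632 CPM). Of 10 ligand processing genes 7 were detected, and PCSK5, PCSK6 and ADAM12 were not (0.357, 0.487 and 0.0271 CPM). Of 10 FGF and HGF binding partners 9 were detected, led by ANXA2 (579 ± 128 CPM), and FGFBP1 was not (0.00971 CPM).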

How the data were processed

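Polyadenylated RNA of 8 hCMEC/D3 libraries (TruSeq RNA Sample Prep Kit v2) was sequenced, per the labels' protocols. The submitters' processing notes name CASAVA 1.9, TopHat2 2.0.6, HTSeq and the build hg19, without further settings. Strand use and gene annotation are not given in the sources used here. The authors deposited raw counts per gene and CQN-normalised values, which are log2 values as judged from the deposited numbers and adjust for gene length and GC content. All 16 per-sample columns were matched to samples by title, and 0 others were present. Gene starts were read as 0-based and are printed 1-based.

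CPM values used TMM-scaled library sizes (edgeR 4.0.16, R 4.3.3). Lengths came from canonical transcripts of GENCODE 44 on GRCh37, matched by symbol (19467 genes) or RefSeq synonym (1989), covering 97.1% of detected genes. PECAM1 had no length. Variation was tested on the counts of all detected genes by the goodness-of-fit test in edgeR with Benjamini-Hochberg adjustment, and was checked on simulated counts. Pair ratios used log2(RPKM + 0.1) and exact sign-flip permutation over 256 patterns, adjusted over 20 pairs. Group tests could not apply to 1 group.

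Named genes were the 10 members, the genes of the pairs, the 3 highest genes per length of each list with its undetected genes where 5 or fewer (some marker genes are given as counts only), and the 2 nearest genes by CQN pattern (the second for MET is not reported here). Other genes in the text (genes called in the lists, and biologically related list genes) were chosen after their values were seen. The members, lists, pairs and replicates set apart were chosen with earlier results of these data known. Alternatives changed scaling, filter, length, pseudocount, dispersion trend and libraries. Counting limits cover counting error only.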

Additional observations from a re-analysis of the deposited data

How the results depend on the processing

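With DESeq2 1.42.0 size factors, total-count scaling or a minimum of 10 counts, and without any 1 library, 9 genes stayed detected; with no filter all 10 had counts. The number of genes above the variation trend was 1, but 3 with the DESeq2 fitted trend and 0 without replicates 2 and 8, an alternative chosen after seeing the data. It was 1 without any 1 library. Of the pairs, 17 to 20 passed without 1 library and 17 on CPM. All 18 pairs with CQN values passed on that scale, FGFR1 against MET included (exact permutation adjusted p = 0.0312, n = 8). Without replicates 2, 7 and 8 the count was 0, since 5 libraries cannot give an exact permutation p below 0.0625. No pair that passed changed its direction. PDGFA against PDGFC lost its call (exact permutation adjusted p = 0.0521, n = 7) without any 1 of replicates 1, 3, 4, 5 and 6. The level of each gene moved by less than 1 SD of the 8 libraries in all 110 recomputations. Libraries left out had contributed to that SD, which made this near certain beforehand, so it is no measure of stability. Without replicates 2, 7 and 8, and with the scaling recomputed, EGFR went from 47.2 to 63.6 CPM and FGFR1 from 75.1 to 73.0 CPM. Genes with replicates 2, 7 and 8 apart numbered 4 on CPM, on CQN values and with DESeq2 size factors. No paired analysis was possible because all libraries belong to 1 group. Depth limited PDGFRA, HGF and other genes of a few read pairs, for which absence was not shown.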
